A study of Arabidopsis thaliana with 6 samples.

Results

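Arabinogalactan proteins are small cell-wall and plasma-membrane proteoglycans, and 9 of the Arabidopsis genes that encode them are described here in anthers: *AGP6* (AT5G14380), *AGP11* (AT3G01700), *AGP17* (AT2G23130), *AGP18* (AT4G37450), *AGP19* (AT1G68725), *AGP23* (AT3G57690), *AGP40* (AT3G20865), *FLA3* (AT2G24450) and *FLA14* (AT3G12660). The 9 genes were chosen by their gene identifiers out of 32833 in the deposited values, and the choice was made with their levels and genotype differences in these libraries already known. Their own differences between genotypes are therefore given as a description, without a test. The study sequenced RNA of anthers in 3 libraries labelled *ice1-2* -/- and 3 libraries of Col-0, the wild type, each named A, B and C. In *ice1-2*, made in Col-0, a T-DNA interrupts an exon of *ICE1*, which encodes a basic helix-loop-helix transcription factor. All plants grew in a greenhouse under long days, and the labels name no treatment. The sample labels give a range of anther stages, whereas the methods text gives flower stages with the same numbers. Either way, each library mixes tapetum, anther wall and pollen of several ages.

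The protein part of an arabinogalactan protein is rich in proline, alanine, serine and threonine. Its prolines are hydroxylated and carry large branched chains of galactose and arabinose, and a glycosylphosphatidylinositol (GPI) anchor usually ties it to the outer face of the plasma membrane. Classical AGPs are mostly such glycosylated backbone, lysine-rich AGPs carry a short basic stretch within it, AG peptides are the shortest forms, and fasciclin-like AGPs (FLAs) join AGP stretches to a fasciclin domain. In Arabidopsis *AGP6* and *AGP11* are known from pollen development and pollen tube growth, *AGP23* and *AGP40* as pollen AG peptides, and *FLA3* and *FLA14* from microspores and pollen. *AGP17*, *AGP18* and *AGP19* are the lysine-rich members and are known from vegetative and ovule tissue.

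The coding sequences show features of these classes. For the 3 lysine-rich genes, the 36 coding bases with the most codons for lysine, arginine and histidine are given 5′ to 3′ with lysine codons in capitals, from RefSeq gene models on TAIR10.1, at chr2:9844738-9844773 (plus strand), chr4:17606303-17606338 (minus strand) and chr1:25809817-25809852 (plus strand).
AGP17: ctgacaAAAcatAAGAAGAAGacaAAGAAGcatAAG
AGP18: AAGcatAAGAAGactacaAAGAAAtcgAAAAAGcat
AGP19: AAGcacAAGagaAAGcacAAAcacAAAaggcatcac
In *AGP19* all 12 codons of the stretch encode lysine, arginine or histidine, and in *AGP17* and *AGP18* it is 9 of 12. The highest such count was 8 among the 23 other AGP proteins, reached by *AGP31*, and 7 among the 18 other FLA proteins.

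Short runs in which proline alternates with alanine, serine or threonine are the motif that directs attachment of arabinogalactan. Counted were pairs of alanine, serine or threonine followed by proline, and of proline followed by alanine. The lysine-rich proteins held 20.6 to 23.8 such pairs per 100 residues, so the pattern is not particular to pollen genes. Fewer, 6.45 to 14.0 per 100 residues, were held by the pollen genes *AGP6*, *AGP11*, *AGP23*, *AGP40* and *FLA3*. For them the 36 coding bases densest in such pairs are given with proline codons in capitals, at chr5:4636223-4636258 (minus strand), chr3:259212-259247 (plus), chr3:21384335-21384370 (plus), chr3:7308792-7308827 (minus) and chr2:10393244-10393279 (minus), all on TAIR10.1.
AGP6: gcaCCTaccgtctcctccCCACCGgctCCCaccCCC
AGP11: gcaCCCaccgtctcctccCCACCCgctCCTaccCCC
AGP23: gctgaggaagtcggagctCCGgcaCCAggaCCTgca
AGP40: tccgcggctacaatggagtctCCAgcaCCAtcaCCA
FLA3: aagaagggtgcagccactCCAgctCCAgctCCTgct
The stretches of *AGP6* and *AGP11* encode the same order of residues with different synonymous codons for some prolines. Over 133 aligned residues the proteins were 74.4% identical and over 402 aligned coding bases 76.9% identical, and the longest run of identical coding bases was 17.

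The other pairs were less alike. *AGP17* and *AGP18* were 65.2% identical, *FLA3* and *FLA14* 43.3%, and *AGP23* and *AGP40* 41.0%. *AGP19* had 248 residues, of which 31.5% were proline, and *AGP23* and *AGP40* had 61 and 62 residues with 4 prolines each. Proline, alanine, serine and threonine together made up 61.8% to 64.7% of the classical pollen proteins *AGP6* and *AGP11*, 56.8% to 68.1% of the lysine-rich ones, 45.9% to 48.4% of the AG peptides and 35.7% to 38.6% of the FLA proteins.

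**Figure D1:**
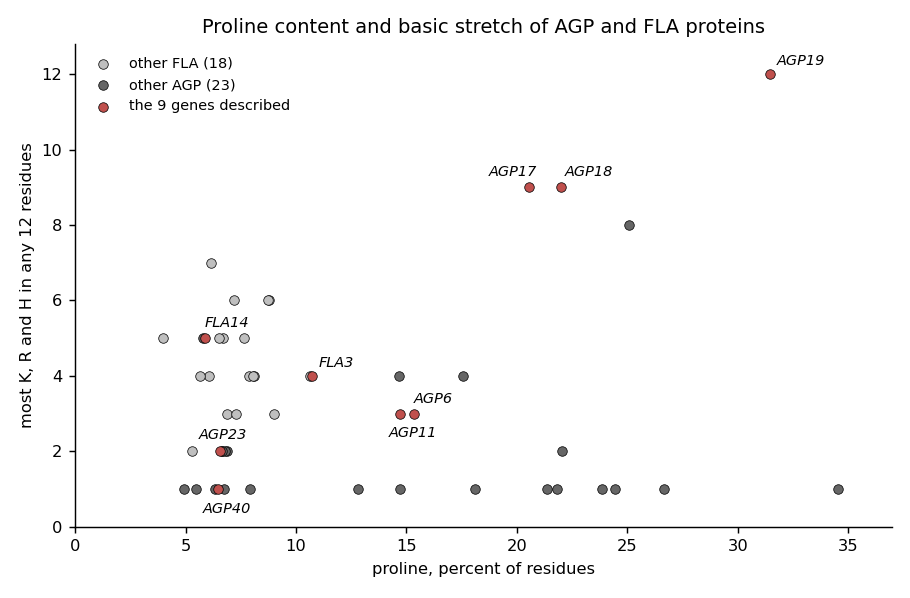
Each point is 1 protein translated from a RefSeq coding sequence, with proline as a percent of its residues on the horizontal axis and the highest number of lysine (K), arginine (R) and histidine (H) residues in any 12 consecutive residues on the vertical axis. *AGP17* and *AGP18* lie at 9 and *AGP19* at 12, above the 8 of the highest other protein, and *AGP19* also has 31.5% proline.

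Levels are FPKM, fragments scaled to transcript length and to the depth of the library, 1 value per gene and library as deposited. A gene was tested where 3 or more libraries reached an FPKM of 1, which held for 18858 of the 27825 genes above 0 in any library. Of the 9 genes, 8 passed this filter, the exception being *FLA14*. A fold change is of the libraries labelled *ice1-2* over Col-0, taken from log2(FPKM + 0.5), so that for genes of low level it comes out too small, and SE is its standard error from limma. A gene was called where its Benjamini-Hochberg adjusted p was under 0.05 and its log2 fold change above 1 or below -1. Whether the 3 libraries of a genotype are from different plants is not stated, so p-values measure the spread between these libraries, which may be technical.

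The libraries were unequal. Steps between low FPKM values put their depth at roughly 5.89, 19.5 and 14.1 M fragments (M for mega) in *ice1-2* A, B and C and 24.5, 26.9 and 22.4 M fragments in Col-0 A, B and C. *ICE1* itself had 12.9, 15.4 and 21.5 FPKM in the libraries labelled *ice1-2* and 12.7, 9.25 and 14.0 FPKM in Col-0, and a level over the whole gene cannot check an insertion inside an exon, so the libraries are called by their label. Genes of the early tapetum, such as *A9* and *MS2*, summed to 11.0, 103 and 15.2 FPKM in *ice1-2* A, B and C and to 127, 4.81 and 5.07 FPKM in Col-0 A, B and C. *ice1-2* B and Col-0 A therefore held much more RNA of these 7 genes, picked from a list of 17 tapetum genes, than the other 4 libraries. Summed over all 17, Col-0 A was highest at 9193 FPKM, but *ice1-2* B, at 3518 FPKM, was the lowest of its genotype. In *ice1-2* A, 4 ribosomal RNA genes held 7.10% of the FPKM sum, against 0.461% to 2.22% in the other 5 libraries. Over all tested genes the median log2 fold change came to 0.15, and to -0.02 after the libraries were rescaled by median ratios.

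The 4 pollen AGP genes were among the most abundant transcripts of both genotypes. *AGP23* had 5140, 5391 and 2866 FPKM in the libraries labelled *ice1-2* and 3151, 5098 and 3975 FPKM in Col-0. Ordered by FPKM, it held place 2 to place 17 among all genes of a library. The range of the libraries labelled *ice1-2* enclosed that of Col-0, with a log2 fold change of 0.10 (SE 0.39, n = 3 per genotype).

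*AGP6*, a classical pollen AGP, had 1754, 2346 and 1094 FPKM in the libraries labelled *ice1-2* and 1698, 2232 and 1750 FPKM in Col-0, a log2 fold change of -0.19 (SE 0.35). Its paralog *AGP11* had 1370, 1711 and 878 FPKM in the libraries labelled *ice1-2* and 1364, 2132 and 1643 FPKM in Col-0, a log2 fold change of -0.41 (SE 0.34). Both were lowest in *ice1-2* C and the other 5 libraries were intermixed. Without *ice1-2* C the log2 fold change of *AGP6* was 0.11 and that of *AGP11* was -0.14.

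*AGP40* was the pollen member with separated genotypes. It had 1472, 1749 and 1052 FPKM in the libraries labelled *ice1-2* and 2103, 2581 and 1834 FPKM in Col-0. Every *ice1-2* library lay below every Col-0 library, although *ice1-2* B and Col-0 C were only 84.4 FPKM apart. The log2 fold change was -0.63 (SE 0.31), and the gene reached neither the fold nor the adjusted p needed for a call.

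Of the 8 genes that passed the filter, 2 were called, both higher in the libraries labelled *ice1-2*, whereas 335 of all 18858 tested genes were called (1.78%), 291 higher (1.54%) and 44 lower (0.233%). In 3 of the 8, every *ice1-2* library lay above every Col-0 library, as did 19.8% of all tested genes. In 1 of the 8, *AGP40*, every *ice1-2* library lay below, as did 7.39% of all tested genes. Nothing is read from these counts, since the genes were chosen with the differences known.

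**Figure D2:**
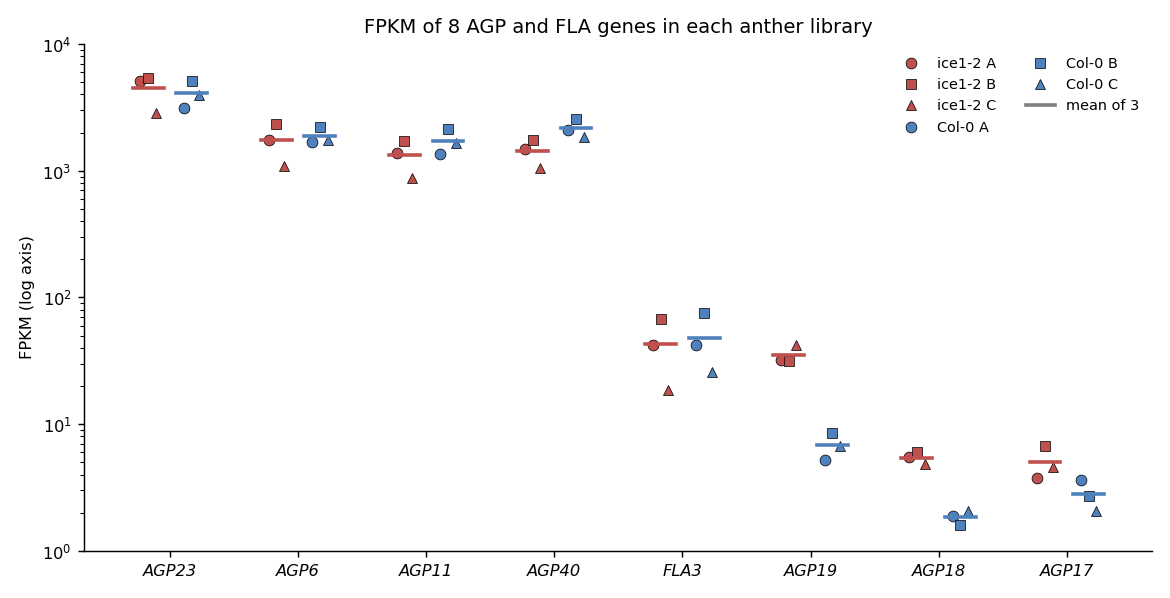
FPKM on a log axis for the 8 genes above the filter, with 1 marker per library (circle A, square B, triangle C), the 3 libraries labelled *ice1-2* in red left of the 3 Col-0 libraries in blue, and a bar at each mean. The 4 pollen AGP genes lie at 878 FPKM or more in all 6 libraries, and *AGP19* lies at 31.5 to 42.2 FPKM in the libraries labelled *ice1-2* and at 5.23 to 8.48 FPKM in Col-0.

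The lysine-rich genes, at far lower levels, were all higher in the libraries labelled *ice1-2*. *AGP19* had 31.8, 31.5 and 42.2 FPKM there and 5.23, 8.48 and 6.73 FPKM in Col-0, a log2 fold change of 2.30 (SE 0.22). The lowest *ice1-2* library stood 3.72 times above the highest Col-0 library. Over 11 alternative analyses its log2 fold change lay between 2.12 and 2.46.

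*AGP18*, known from selection of the functional megaspore, had 5.48, 6.05 and 4.81 FPKM in the libraries labelled *ice1-2* and 1.88, 1.59 and 2.07 FPKM in Col-0, a log2 fold change of 1.34 (SE 0.20). Its genotypes did not overlap, and over the same 11 analyses the log2 fold change lay between 1.18 and 1.51. It was called in 5 of these 11 analyses, and in 2 of the 6 that left out a library. These counts describe how its call depends on the settings and are no test, since the gene was chosen with its difference known.

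*AGP17*, first found through resistance of roots to Agrobacterium, had 3.78, 6.70 and 4.58 FPKM in the libraries labelled *ice1-2* and 3.66, 2.69 and 2.07 FPKM in Col-0. The lowest *ice1-2* value and the highest Col-0 value were 0.118 FPKM apart, so the separation was narrow. The log2 fold change was 0.73 (SE 0.27).

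Summed over the 3 genes, lysine-rich AGPs reached 45.7 ± 5.40 FPKM (SD, n = 3) in the libraries labelled *ice1-2* and 11.5 ± 1.12 FPKM in Col-0. *AGP19* supplied 77.5%, 71.2% and 81.8% of that sum in the libraries labelled *ice1-2* and 48.6%, 66.5% and 61.9% in Col-0. Its share was thus higher in each *ice1-2* library, by as little as 4.76 percentage points between *ice1-2* B and Col-0 B.

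*AGP19* lies at chr1:25809298-25810130 on the plus strand of TAIR10.1, and AT1G68723 on the minus strand covers 61.7% of it. That neighbour had 2.76, 2.93 and 3.92 FPKM in the libraries labelled *ice1-2* and 0.840, 0.703 and 0.906 FPKM in Col-0. It was called higher with a log2 fold change of 1.48 (adjusted p = 0.0311 from limma). It reached the filter only through the libraries labelled *ice1-2*, where it was higher, so this call is a description and no support. The strand setting of the counting is not stated, so reads of the overlap cannot be told apart between the 2 genes. *AGP17* and *AGP18* overlap no annotated gene.

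Several markers of green tissue and 1 of pistil were called higher as well. Of 9 photosynthesis genes all passed the filter, with a median log2 fold change of 1.46. Of these, 3 were called higher, against 1.54% of all tested genes, and none lower. *RBCS2B*, which encodes a Rubisco small subunit, had a log2 fold change of 2.50 (adjusted p = 0.0254), *RBCS3B* of 1.61 (0.0456) and *PSAF*, a photosystem I subunit, of 1.12 (0.0468), all from limma. *RBCS2B* was called in 5 of 11 alternative analyses, *RBCS3B* in 4 and *PSAF* in 2, with log2 fold changes of 2.12 to 2.75, 1.43 to 1.95 and 0.93 to 1.26. The Rubisco small subunit genes are near-identical copies, so reads may have been split between them. The most abundant of the 9, *RBCS1A*, had 735, 1418 and 1276 FPKM in the libraries labelled *ice1-2* and 493, 485 and 625 FPKM in Col-0, and the 9 summed to 1802 to 3209 FPKM in the libraries labelled *ice1-2* and 948 to 1162 FPKM in Col-0. Of 5 pistil genes 2 passed the filter, and *CRC*, a carpel development gene that also acts in nectaries, was called higher at 4.27, 3.03 and 2.52 FPKM in the libraries labelled *ice1-2* and 0.499, 0.918 and 0.327 FPKM in Col-0 (log2 fold change 1.81, adjusted p = 0.0326 from limma). *CRC* was called in 3 of the 8 alternative analyses in which it passed the filter. It reached the filter only through the libraries labelled *ice1-2*, where it was higher, so its call is a description and no support. The 5 pistil genes summed to 5.41 to 10.1 FPKM in the libraries labelled *ice1-2* and 1.57 to 4.57 FPKM in Col-0. *CRC* is part of these sums and was the only 1 of the 5 whose genotypes did not overlap. *STK* had 0.396, 0.306 and 2.22 FPKM in the libraries labelled *ice1-2* and 0.901, 0.978 and 0.163 FPKM in Col-0. *SHP1*, *INO* and *STK* did not reach the filter. The part of green tissue or carpel RNA in the levels of *AGP17*, *AGP18* and *AGP19* was not tested. In bulk samples fewer cells of a type and less RNA per cell cannot be told apart.

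*FLA3*, required for microspore and intine development, had 42.5, 68.2 and 18.6 FPKM in the libraries labelled *ice1-2* and 42.3, 74.8 and 25.8 FPKM in Col-0, a log2 fold change of -0.20 (SE 0.50). Within each genotype its highest library was 2.90 times its lowest or more, the widest spread of the 8 genes, and the spread within a genotype was far larger than the difference between genotypes. *FLA3* lies on the minus strand at chr2:10392787-10393976, and 96.5% of it lies within AT2G24440 on the plus strand, a gene with 739, 910 and 518 FPKM in the libraries labelled *ice1-2* and 636, 834 and 757 FPKM in Col-0. That neighbour stood at 11.2 to 29.3 times the level of *FLA3* and the counting strand is not stated, so reads of these genes cannot be told apart.

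*FLA14*, known from pollen and its germination, was listed at 0 in all 3 libraries labelled *ice1-2*, at 0.0485 FPKM in Col-0 A and at 0 in Col-0 B and C. The single value above 0 corresponds to about 0.915 fragments on the rough depth scale, that is, about 1 fragment. *FLA14* lies entirely within AT3G12670 on the other strand, which had 14.9, 22.7 and 19.3 FPKM in the libraries labelled *ice1-2* and 25.7, 21.8 and 16.9 FPKM in Col-0. An FPKM of 0 is a listed value and is not read as an absent transcript.

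Ordered by mean FPKM, *AGP23* stood first in both genotypes. *AGP6*, *AGP40* and *AGP11* followed in this order in the libraries labelled *ice1-2*, and *AGP40*, *AGP6* and *AGP11* in Col-0, and in both genotypes neighbours among these 3 overlapped in range. In the libraries labelled *ice1-2*, *FLA3* and *AGP19* overlapped, as did *AGP18* and *AGP17*, while in Col-0 the order *FLA3*, *AGP19*, *AGP17*, *AGP18* had no overlapping neighbours, although *AGP17* and *AGP18* both had a library at 2.07 FPKM. *FLA14* was last in both.

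**Figure D3:**
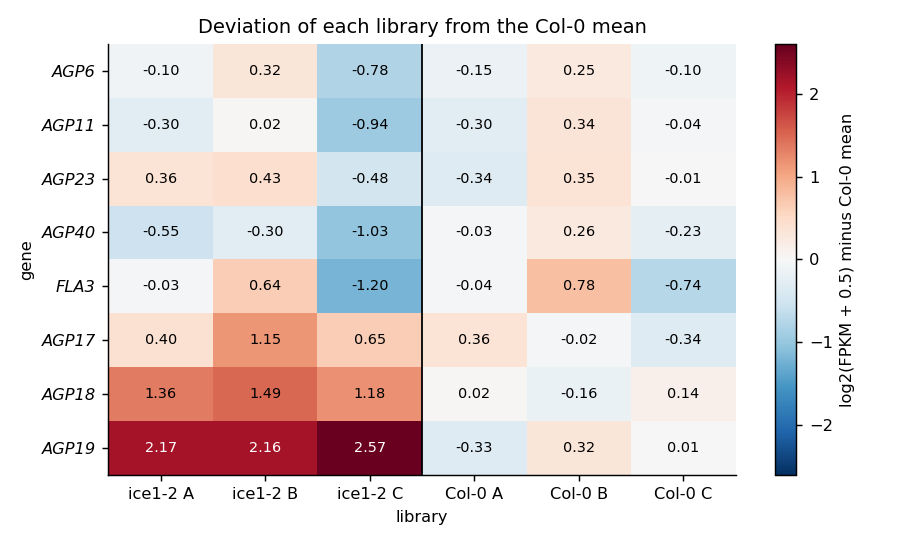
Each cell gives the log2(FPKM + 0.5) of a gene (row) in a library (column) minus the mean of that gene in the 3 Col-0 libraries, with red above and blue below that mean. In *ice1-2* C the 5 pollen-type genes in the upper rows are all below the Col-0 mean, from -0.48 for *AGP23* to -1.20 for *FLA3*, while *AGP19* is above it by 2.16 to 2.57 in all 3 libraries labelled *ice1-2*.

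Across the 6 libraries, on the log2 scale, *AGP6* correlated with *AGP11* at a Pearson r of 0.93, with *FLA3* at 0.91, with *AGP23* at 0.84 and with *AGP40* at 0.79. *AGP18* correlated with *AGP19* at 0.94 and with *AGP17* at 0.78, and *AGP40* correlated with *AGP19* at -0.78, with *AGP18* at -0.74 and with *AGP23*, the other pollen AG peptide, at only 0.42. The 6 points mix genotype, depth and tissue content, so these values describe the libraries. The genes most like *AGP6* were AT1G63220, which encodes a C2-domain protein (0.995), AT3G52460, of a hydroxyproline-rich glycoprotein family (0.991), and AT2G01275, of a RING/FYVE/PHD zinc finger family (0.988). Those most like *AGP19* were AT1G75945 (0.996), *DIT2.1*, a plastid dicarboxylate transporter (0.995), and AT4G17180, a glycosyl hydrolase (0.994). Those most like *FLA3* were *ISU2*, an iron-sulphur cluster scaffold (0.996), AT3G13229 (0.994) and AT2G37610 (0.993). Over all tested genes 34 had an r above 0.95 with *AGP6*, 253 with *AGP19* and 21 with *FLA3*.

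Ratios within a library do not depend on its scaling. The ratio of *AGP40* to *AGP23*, the 2 pollen AG peptides, was 0.286, 0.324 and 0.367 in the libraries labelled *ice1-2* and 0.667, 0.506 and 0.461 in Col-0, so the genotypes did not overlap. The ratio of *AGP6* to *AGP11* was 1.28, 1.37 and 1.25 in the libraries labelled *ice1-2* and 1.25, 1.05 and 1.06 in Col-0, and *ice1-2* C and Col-0 A had practically the same ratio. These ratios hold genes chosen with their differences known, so no test is given. Such a ratio does not say which of both genes moved.

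**Figure D4:**
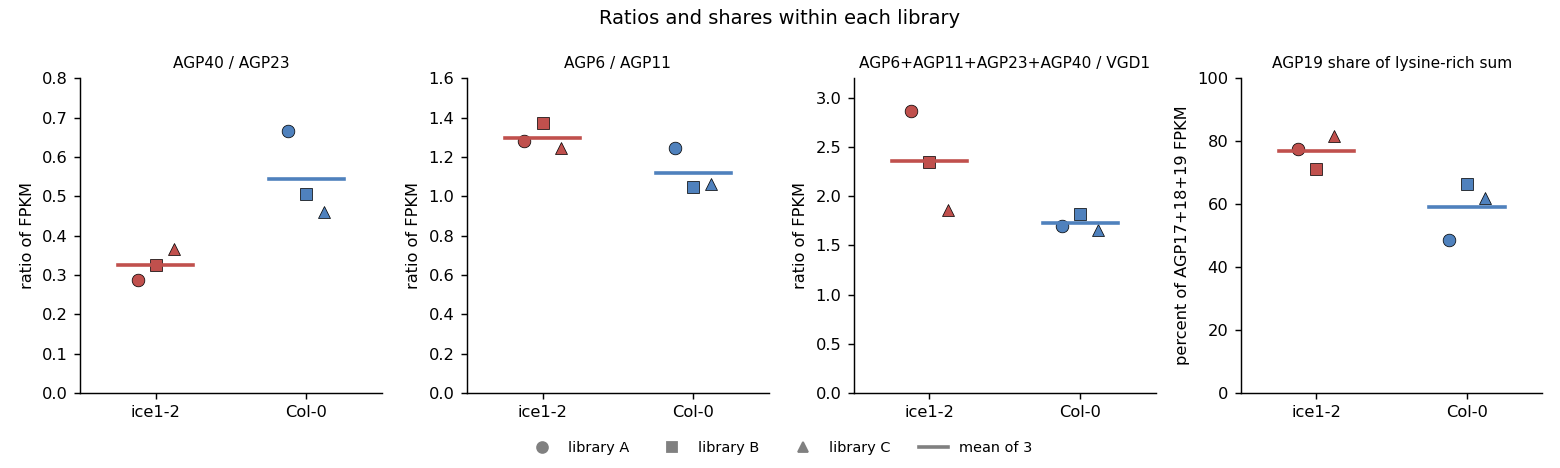
From left to right, the FPKM ratio of *AGP40* to *AGP23*, that of *AGP6* to *AGP11*, that of the sum of *AGP6*, *AGP11*, *AGP23* and *AGP40* to the pollen gene *VGD1*, and the percent of the lysine-rich sum held by *AGP19*, with 1 marker per library, *ice1-2* left of Col-0, and bars at means of 3. *AGP40* over *AGP23* averages 0.326 in the libraries labelled *ice1-2* and 0.545 in Col-0, with no overlap.

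The 4 pollen AGP genes were set against 20 other pollen genes, among them receptor kinases, pectin methylesterases, actins and sperm cell genes. All 20 passed the filter and all 20 had a negative log2 fold change, with a median of -0.50. Only *AHA6*, a pollen plasma membrane proton pump, was called, at 145, 118 and 134 FPKM in the libraries labelled *ice1-2* and 265, 316 and 236 FPKM in Col-0 (log2 fold change -1.03, adjusted p = 0.0480 from limma). It was called in 1 of 11 alternative analyses, with adjusted p between 0.0482 and 0.166, and in none of the 6 that left out a library. Over all tested genes 0.233% were called lower. In 11 of the 20 every *ice1-2* library lay below every Col-0 library, as did 7.39% of all tested genes. The summed level of the 20 pollen genes was 7497 to 11395 FPKM in the libraries labelled *ice1-2* and 12358 to 15359 FPKM in Col-0. The most abundant, *VGD1*, a pectin methylesterase of pollen tubes, had 3400, 4759 and 3159 FPKM in the libraries labelled *ice1-2* and 4894, 6634 and 5539 FPKM in Col-0.

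*AGP6* and *AGP11* had less negative log2 fold changes than that median, *AGP23* a positive one (0.10, SE 0.39), and *AGP40* a more negative one. The sum of the 4 pollen AGP genes over *VGD1* was 2.86, 2.35 and 1.86 in the libraries labelled *ice1-2* and 1.70, 1.82 and 1.66 in Col-0. Each *ice1-2* ratio was above each Col-0 ratio, by 0.0490 between *ice1-2* C and Col-0 B. No test is given for this ratio, which holds chosen genes.

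Outside the 9 genes, other members of both families were tested over all genes. Of 23 other AGP genes 20 passed the filter, 15 had a positive and 5 a negative log2 fold change, and the median was 0.39, against 0.15 over all tested genes. Only *AGP9*, a classical AGP, was called, at 60.8, 70.6 and 71.1 FPKM in the libraries labelled *ice1-2* and 23.4, 33.4 and 39.3 FPKM in Col-0 (log2 fold change 1.09, adjusted p = 0.0499 from limma). Its call was lost in 10 of 11 alternative analyses, where the log2 fold change was between 0.88 and 1.25 and the adjusted p between 0.0534 and 0.143. In 9 of the 20 every *ice1-2* library lay above every Col-0 library, and in 1, *AGP24*, every one lay below. Of the 9, 1 passed the filter only through the libraries labelled *ice1-2*. Over all tested genes 19.8% lay above in this way, 7.39% lay below and 1.54% were called higher. *AGP3*, *AGP13* and *AGP30* were listed at 0 in all 6 libraries.

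*AGP24* and *AGP41*, 2 further AG peptides, were the next most abundant of the family. *AGP24* had 502, 581 and 317 FPKM in the libraries labelled *ice1-2* and 599, 794 and 614 FPKM in Col-0 (log2 fold change -0.55, adjusted p = 0.305 from limma). *AGP41* had 910, 630 and 406 FPKM in the libraries labelled *ice1-2* and 737, 877 and 776 FPKM in Col-0 (log2 fold change -0.37, adjusted p = 0.537 from limma). With the 4 pollen genes *AGP6*, *AGP11*, *AGP23* and *AGP40* they held 89.9%, 90.0% and 83.1% of the summed FPKM of all 50 AGP and FLA genes in the libraries labelled *ice1-2* and 92.3%, 94.3% and 91.4% in Col-0. *AGP24* and *AGP41* were singled out for their level after their values were seen.

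The other FLA genes stood higher as a group in the libraries labelled *ice1-2*. Of 18, 13 passed the filter, and all 13 had a positive log2 fold change with a median of 0.96. In 12 every *ice1-2* library lay above every Col-0 library, as did 19.8% of all tested genes. Of the 13, 5 were called higher, against 1.54% of all tested genes, and none lower. *FLA2* had 33.9, 29.3 and 20.4 FPKM in the libraries labelled *ice1-2* and 7.52, 8.95 and 13.3 FPKM in Col-0 (log2 fold change 1.45, adjusted p = 0.0416 from limma). *FLA7* had 24.9, 24.1 and 28.3 FPKM in the libraries labelled *ice1-2* and 10.8, 9.11 and 10.2 FPKM in Col-0 (log2 fold change 1.32, adjusted p = 0.0197 from limma). The others called were *FLA12*, which is known with *FLA11* from secondary walls of stems (log2 fold change 1.24, adjusted p = 0.0350), *FLA16* (1.13, 0.0485) and *FLA8* (1.02, 0.0416). A gene on the opposite strand covers 56.7% of *FLA16*, so its level is less certain.

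The number of FLA calls changed with the setting. No FLA gene was called without *ice1-2* B, without *ice1-2* C, without Col-0 B or without Col-0 C, 2 were called without *ice1-2* A, and 5 without Col-0 A. After median-ratio scaling 2 were called, without the filter 1, and with a replicate block 0. With a library left out the log2 fold change was 1.28 to 1.67 for *FLA2*, 1.25 to 1.37 for *FLA7* and 1.14 to 1.40 for *FLA12*. The summed level of the 18 genes was 353 to 409 FPKM in the libraries labelled *ice1-2* and 205 to 219 FPKM in Col-0. Beside this, endothecium genes, which mark the wall layer that thickens before opening, had a median log2 fold change of 0.38 over 6 genes with none called in limma and 1, *CESA7*, at an unadjusted p under 0.05. Their most abundant gene, *CESA4*, a secondary wall cellulose synthase, had 50.7, 38.6 and 94.2 FPKM in the libraries labelled *ice1-2* and 38.4, 37.9 and 58.6 FPKM in Col-0. The part of wall or green tissue in the FLA levels was not tested.

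**Figure D5:**
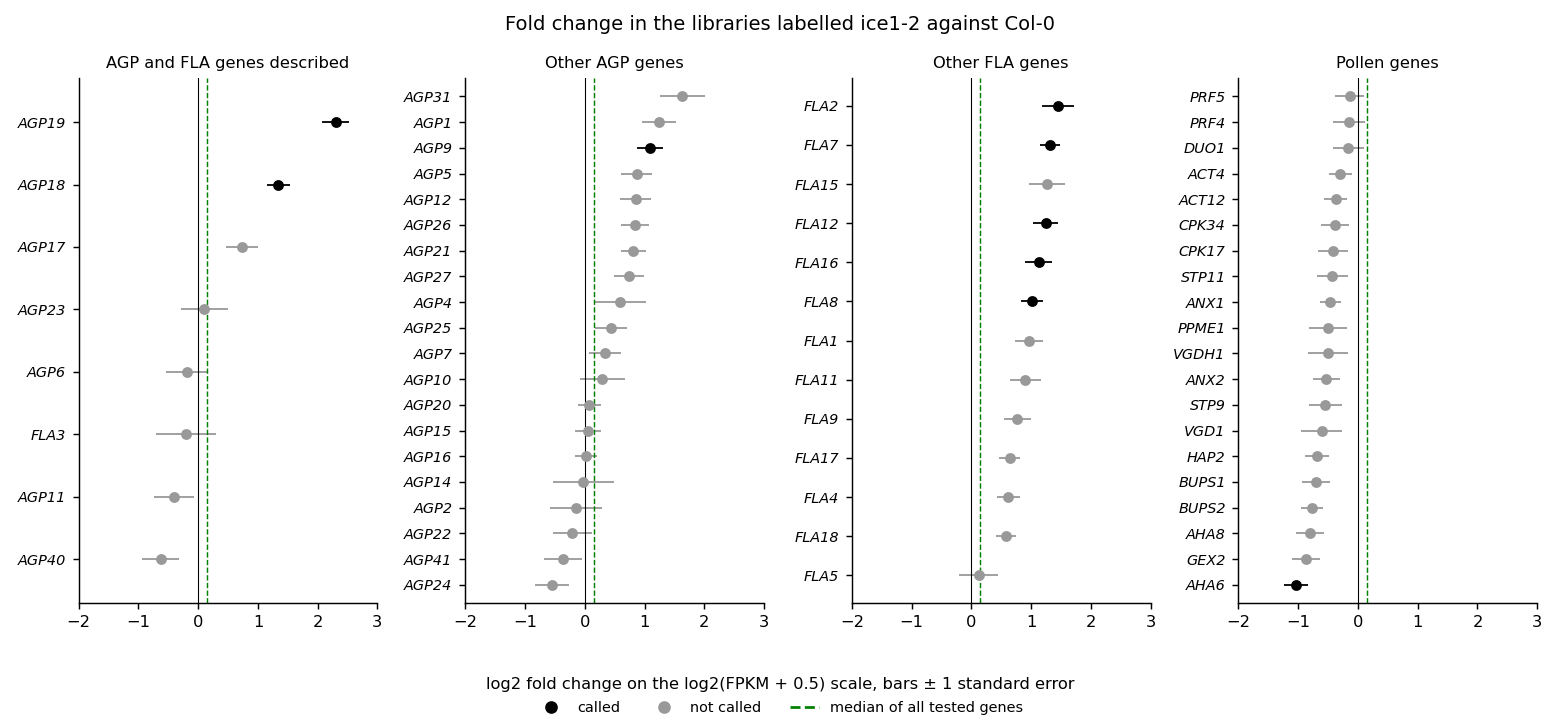
Log2 fold change in the libraries labelled *ice1-2* against Col-0 with bars of 1 standard error, for the 8 genes described, 20 other AGP, 13 other FLA and 20 pollen genes that passed the filter. Black points were called, grey points were not, and the dashed line is the median of all tested genes, 0.15. All 13 other FLA genes lie above 0 and all 20 pollen genes below 0.

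The enzymes that build the sugar chains and the anchor showed no called gene. Of 20 genes for prolyl hydroxylation and for adding galactose, glucuronic acid and other sugars 17 passed the filter, with a median log2 fold change of 0.28, and of 5 genes for the GPI anchor all 5 passed, with a median of 0.02. Among these 22 genes, 2 had an unadjusted p under 0.05 in limma, *GALT29A* and *GLCAT14B*. *KNS4* and the prolyl hydroxylase gene *P4H2* were called higher when Col-0 A was left out. The most abundant, *KNS4*, a galactosyltransferase needed for pollen exine, had 126, 198 and 230 FPKM in the libraries labelled *ice1-2* and 334, 65.5 and 61.7 FPKM in Col-0 (log2 fold change 0.69, adjusted p = 0.537 from limma). It was highest in Col-0 A, and the part of tapetal RNA in its level was not tested. *SETH1* and *SETH2*, anchor genes required for pollen tube growth, lay below Col-0 in every library labelled *ice1-2*, *SETH2* at 8.82, 9.50 and 10.6 FPKM there and 11.7, 10.8 and 11.1 FPKM in Col-0 (log2 fold change -0.21, adjusted p = 0.487 from limma). *GALT29A*, *GLCAT14B*, *P4H2*, *CESA7*, *SETH1* and *SETH2* were singled out after their values were seen.

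Tapetum genes, which mark the layer that feeds the pollen, gave no call either. Of 17, 12 passed the filter with a median log2 fold change of 0.27, and 0 had an unadjusted p under 0.05 in limma. Their sum was 3518 to 4838 FPKM in the libraries labelled *ice1-2* and 2332 to 9193 FPKM in Col-0. The most abundant, *GRP17*, a pollen coat oleosin, had 1320, 1192 and 1662 FPKM in the libraries labelled *ice1-2* and 3806, 1274 and 983 FPKM in Col-0.

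The upstream sequence was searched for the E-box, CANNTG, which reads the same on both strands and is the motif that basic helix-loop-helix factors bind. In the 250 bases before the annotated start it was present in 15181 of 27443 protein-coding genes (55.3%) and in 7 of the 9 genes, all but *AGP6* and *FLA3*. The 30 bases around the matches of the lysine-rich genes, which differed between genotypes in one direction, are given 5′ to 3′ with each match in capitals, at chr2:9844100-9844129 (plus), chr4:17607102-17607131 (minus) and chr1:25809254-25809283 (plus) on TAIR10.1.
AGP17: atgccaactctcCAGCTGtttatccgtcta
AGP18: tgatCATATGttcaacaaaaCACATGctaa
AGP19: acaatactttacCAATTGtttcttgtagct
The matches begin 22 bases before the start in *AGP17*, 77 and 61 in *AGP18* and 32 in *AGP19*, where the window also lies within AT1G68723. Of the other AGP and FLA genes called higher, *FLA12* held a match in its 250 bases, and *AGP9*, *FLA2*, *FLA7*, *FLA8* and *FLA16* held none. A match is a description of the letters and no evidence of binding.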

How the data were processed

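RNA of anthers was sequenced in 3 libraries labelled *ice1-2* and 3 of Col-0. The authors made and deposited 1 FPKM value per gene and library. Per the study's methods, Trim Galore trimmed the reads, TopHat mapped them to TAIR10, HTSEQ counted them after assembly, and the counts were normalized as FPKM. The strand mode of counting was not given in the sources used here, and no table of reads was used. Of values below the filter, 21.1% to 43.9% lay within 0.05 of a whole fragment step, so reads could not be recovered and depths are rough.

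Genes that reached an FPKM of 1 in 3 or more libraries were fitted as log2(FPKM + 0.5) by genotype alone, using limma 3.58.1 (R 4.3.3) and its trended variance, and p-values were adjusted over all 18858 genes by the Benjamini-Hochberg method. The fit was checked on simulated data with independent libraries, for recovery of the fold changes put in. That check does not cover the stability of calls in the real libraries. Tables and figures used Python 3.11.15, pandas 2.3.3 and matplotlib 3.10.9, and alignments Biopython 1.88. Gene models and sequences are RefSeq on TAIR10.1, with the oldest RefSeq protein of each gene.

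The 9 genes and all gene lists were chosen with earlier results of these data known. Genes named are the 9, up to 4 called genes per list and direction with the largest change, the 3 most correlated with *AGP6*, *AGP19* and *FLA3* (*FLA14* failed the filter), the most abundant gene of each marker list, and those said to be singled out later. *FLA8*, the fifth FLA gene called, lies outside this rule. Alternatives were pseudocounts of 0.1 and 1, no filter, median-ratio scaling, a replicate block, each library left out and no limit on the fold.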

Additional observations from a re-analysis of the deposited data

How the results depend on the processing

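Over all genes, 335 calls became 28 without the filter, 163 after median-ratio scaling, 35 with the replicate block, and 15 to 628 when 1 library was left out, with the lowest count without *ice1-2* C and the highest without Col-0 A. The other FLA genes had 1 call without the filter, 2 after median-ratio scaling, 0 with the replicate block and 0 to 5 with 1 library left out. The other AGP genes had 0 calls with a pseudocount of 0.1, without the filter, after median-ratio scaling and with the replicate block, and 0 to 1 with 1 library left out. The pollen genes had 0 calls under the same 4 settings and 0 in each of the 6 analyses that left out a library. The endothecium, green and pistil genes had 0 calls without the filter, 0 after median-ratio scaling, 1 with the replicate block and 0 to 3 with 1 library left out, and glycosylation and anchor genes had 0 to 2. The cause of these changes was not tested.

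The replicate letters were not taken to pair libraries, since the deviations of same-letter libraries correlated at -0.21, 0.05 and 0.12. With the block the log2 fold change of *AGP19* was 2.30. For *FLA3* library B was highest and C lowest in both genotypes, and its SE was 0.18 with the block and 0.50 without it. The SE of *AGP17* and *AGP18* was slightly larger with the block. Of 88 fold changes of the 8 genes under 11 alternatives, 85 moved by less than 1 SD between replicates. The other 3 were of *AGP18*, at 1.51 with a pseudocount of 0.1, 1.18 with a pseudocount of 1 and 1.19 after median-ratio scaling. The sign changed under some alternative for *AGP6* (-0.44 to 0.11), *AGP23* (-0.08 to 0.40) and *FLA3* (-0.62 to 0.31), which were not called. At the depth of these libraries, *FLA14* rests on about 1 fragment.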
